A study of Mus musculus with 6 samples.

Results

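The transcripts of Tespa1 and of 8 genes whose proteins work with it around the inositol trisphosphate (IP3) receptor were examined in irradiated LSKs, the Lin- Sca-1+ c-Kit+ bone marrow cells that hold the hematopoietic stem and progenitor cells. The 9 genes were chosen by name (Tespa1, Itpr1, Itpr2, Itpr3, Plcg1, Plcg2, Grb2, Itprid2 and Hspa9), and all 9 were found among the 55487 genes of the deposited table. Itprid2 is the current symbol of Ssfa2. RNA-seq was available for 3 Tespa1+/+ and 3 Tespa1-/- samples, with total counts from 12856630 to 30576981 per library. Per the study's methods, mice were males of 8 to 10 weeks on a C57BL/6 background, both groups had received 5 Gy of total body irradiation, and LSKs were taken on day 13. The Tespa1-/- mice carried the germline allele B6.129S-Tespa1tm1Smoc, so Tespa1 was targeted in every cell type and not only in LSKs, and the labels call the Tespa1+/+ mice littermates. Whether a library came from 1 mouse or from pooled mice was not given in the sources used here, so that p-values measure only the spread between these libraries. No unirradiated or other control LSKs are analysed here.

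IP3 is made when phospholipase C enzymes split a membrane lipid, and it opens IP3 receptors, the calcium channels of the endoplasmic reticulum (ER). Tespa1 was first described in thymocytes, where the protein binds IP3 receptors and joins the signalling complex below the T cell receptor that contains PLC-gamma and the adaptor GRB2. Its relative ITPRID2 also binds IP3 receptors, and the chaperone HSPA9 (GRP75) bridges these receptors to the channels of the outer mitochondrial membrane.

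Of 15332 genes tested with the edgeR quasi-likelihood test, 19.2% were lower and 14.0% were higher in Tespa1-/- LSKs when both a fold over 1.5 and an adjusted p under 0.05 were required, which is the meaning of "called" here. Without the fold, 63.3% of genes had such a p, and for 69.1% there was no overlap between the groups. Fold change also ran with gene length. Spearman rho between log2 fold change and exon length was -0.62 across 10033 genes, which are not independent replicates. These were the genes with a mean log2 normalised count over 3. Fold changes of the 9 genes and of the pathway genes named are therefore given again after a correction for this trend. In that fit rho was -0.08. With the length of the longest transcript rho went from -0.66 to -0.19, so part of the trend stayed. Of 15314 genes, 15.2% were called lower and 8.20% higher in that fit. The libraries did not hold the same mix of transcripts. Of 9 LSK markers, 7 were called lower, among them Kit with a log2 change of -0.97 and Flt3 with -1.01 (-0.56 and -0.78 after the length correction, where 6 markers were called lower), and the markers summed to between 1355 and 1401 CPM (normalised read counts, scaled to a common library total) in Tespa1+/+ and between 771.8 and 802.6 CPM in Tespa1-/- libraries. All 7 tested neutrophil markers of 8 were called higher, and their sum was 20.9 to 23.7 CPM against 463.1 to 489.2 CPM. Of the other lists, 5 of 7 tested B cell markers were called lower, as were 3 of 5 T cell, 3 of 7 mast cell and basophil, 1 of 6 monocyte and macrophage and 1 of 4 megakaryocyte markers, whereas 3 of 5 erythroid markers were called higher and 1 lower. In bulk RNA, fewer cells of a type and less RNA per cell cannot be told apart, and the part of these differences in the results on the 9 genes was not tested.

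Together, 5 of the 9 genes were called lower in Tespa1-/- LSKs and 0 were called higher, beside 19.2% and 14.0% of all genes tested. The genes called lower were Tespa1, the 3 IP3 receptor genes and Plcg1. At any fold, 7 genes were lower and 1 was higher at an adjusted p under 0.05 by edgeR, and the groups did not overlap for 8 of 9. Of all genes tested, 63.3% had such a p and 69.1% did not overlap. The median log2 fold change was -0.64, against -0.00 for all genes tested. In the length-corrected fit the middle value was -0.27, that of Itpr1, against a median of 0.02 for all genes. After the length correction, 2 of the 9 genes were called lower, namely Tespa1 and Itpr3, and 0 higher, beside 15.2% and 8.20% of all genes in that fit. Grb2 was the only gene with an unadjusted p above 0.05 in the edgeR fit across all genes, at 0.0726.

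**Figure D1:**
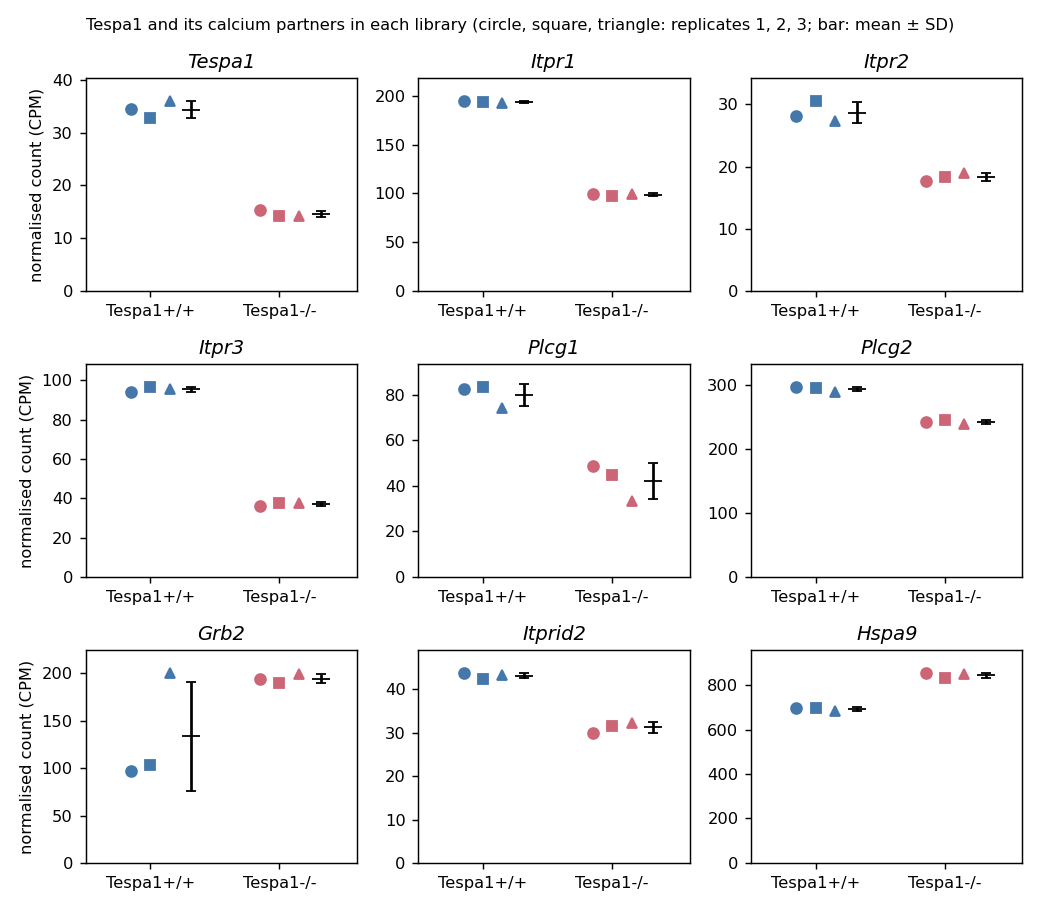
Normalised counts (CPM, linear axis from 0) of the 9 genes in each of the 6 libraries, with 1 panel per gene; symbols are replicates and black bars are mean ± SD (n = 3). Groups are separate in 8 panels, and in the Grb2 panel the Tespa1+/+ replicate 3 library sits at 200.1 CPM, among the Tespa1-/- libraries.

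The targeted gene was considered first. Tespa1 (ENSMUSG00000034833, GRCm38 chromosome 10, 130322870 to 130364111, plus strand, protein coding) had counts of 626, 1033 and 533 in Tespa1+/+ libraries and 261, 207 and 176 in Tespa1-/- libraries. These equal 34.5, 32.7 and 36.0 CPM against 15.3, 14.3 and 14.2 CPM, so that every Tespa1-/- library was below every Tespa1+/+ library and none was near 0. The mean fell from 34.4 ± 1.62 to 14.6 ± 0.63 CPM (SD, n = 3), a log2 fold change of -1.23 (SE 0.07, 95% interval -1.39 to -1.07, edgeR adjusted p = 7.0e-06). The value after the length correction was -0.99, and in every setting tried it lay between -1.36 and -0.99. Among all tested genes, 7.40% had a lower log2 fold change.

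Transcripts assigned to Tespa1 were therefore still counted in each Tespa1-/- library, at a mean FPKM (counts scaled by gene length and by library total) of 2.11 ± 0.09 against 5.32 ± 0.25. Which exons these counts came from was not analysed here. The qPCR primers that the study designed for this gene are shown because they mark which stretch of the transcript its own assay reads; the capital letters mark the start codon.
Tespa1 forward: ATGgaggcatcggtactgag
Tespa1 reverse: catccaggctagaaggctcg
The forward primer lies at chr10:130347188-130347207 (GRCm38, plus strand) and starts at the first annotated coding base, and the reverse primer matches the opposite strand at chr10:130347316-130347335. Of the 6 transcripts in GENCODE M21, 3 hold both primers within 1 exon, which is exon 2 or exon 3, and neither primer matches the other 3 in full. A count per gene sums all these transcripts, whereas the amplicon reads only those that hold this whole stretch.

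The IP3 receptors are tetrameric channels, and the 3 genes encode subunits that differ in their sensitivity to IP3 and calcium. All 3 genes were lower in Tespa1-/- LSKs, to different extents. Itpr3 (chromosome 17, 27057304 to 27122223) had 94.2, 96.5 and 95.5 CPM in Tespa1+/+ and 36.1, 37.5 and 37.7 CPM in Tespa1-/- libraries, with values in each group within a few percent of each other. Its log2 fold change without correction, -1.36 (SE 0.04, 95% interval -1.46 to -1.27, edgeR adjusted p = 1.0e-06), was the largest of the 9 genes, at 2.57-fold lower, and it was -0.95 after the length correction.

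Itpr1 (chromosome 6, 108213096 to 108551109) was the receptor gene with the highest count. It had 194.7, 193.4 and 193.0 CPM in Tespa1+/+ and 99.9, 97.3 and 99.0 CPM in Tespa1-/- libraries, and the groups were far apart. The log2 fold change was -0.97 (SE 0.03, 95% interval -1.04 to -0.90, edgeR adjusted p = 1.2e-06), which without correction is equal to that of the LSK marker Kit. After the length correction it was -0.27 (edgeR adjusted p = 2.8e-04), which is below a fold of 1.5 and a smaller change than that of Kit.

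Itpr2 (chromosome 6, 146108299 to 146502223) was the lowest of the receptor genes, with 28.1, 30.5 and 27.3 CPM in Tespa1+/+ and 17.7, 18.3 and 19.0 CPM in Tespa1-/- libraries. The groups did not overlap, and the log2 fold change was -0.64 (SE 0.07, 95% interval -0.81 to -0.48, edgeR adjusted p = 1.6e-04). The call did not hold after the length correction: the log2 fold change was then -0.02 (edgeR adjusted p = 0.86), and with the longest transcript in place of exon length its sign turned, at 0.17. The exons of Itpr1 cover 18319 bases and those of Itpr2 cover 14802, against 9019 for Itpr3.

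Levels of different genes were then set side by side per length, as deposited FPKM. The receptor genes summed to an FPKM of 21.8, 22.1 and 21.8 across the Tespa1+/+ libraries and of 9.36, 9.44 and 9.56 across the Tespa1-/- libraries, a log2 difference of -1.21 (exact permutation p = 0.1, two-sided, the smallest that 3 against 3 allows). With the length trend taken out of the FPKM of each library, a step chosen after the data were seen, the sum was 18.1 ± 0.165 against 11.6 ± 0.103 (SD, n = 3) and the log2 difference -0.65, with groups that still did not overlap. Itpr3 held 48.2% ± 0.33 of the sum in Tespa1+/+ and 40.5% ± 0.67 in Tespa1-/- LSKs (SD, n = 3), Itpr1 43.7% ± 0.49 and 48.1% ± 0.88, and Itpr2 8.16% ± 0.41 and 11.3% ± 0.28. The order of Itpr1 and Itpr3 in Tespa1+/+ LSKs depended on which length was used: with the longest transcript Itpr1 held 60.0% and Itpr3 32.5%. The direction of each share's difference between the groups was the same with every length used and with the length trend taken out.

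**Figure D2:**
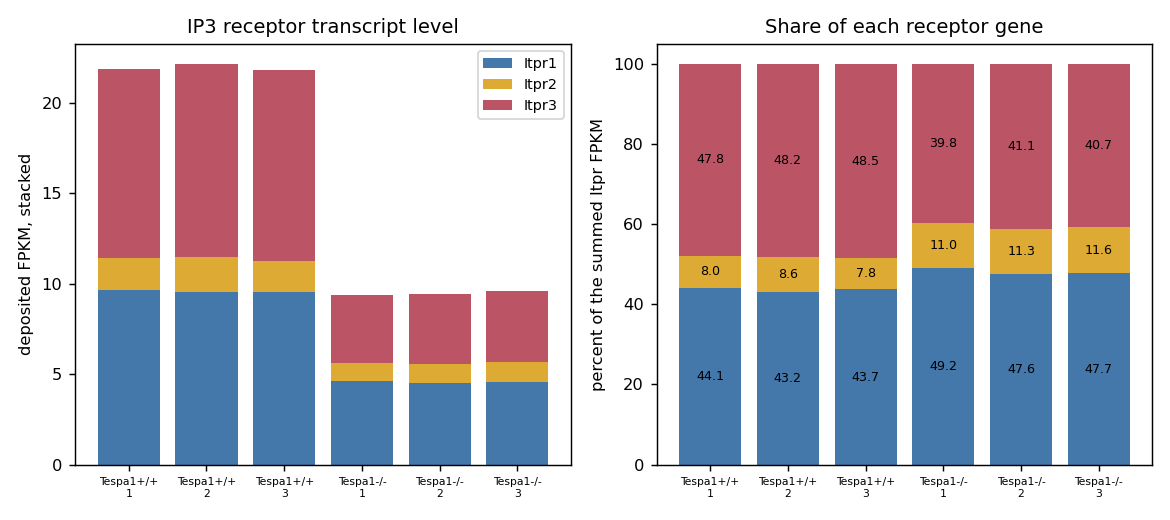
Left, deposited FPKM of the IP3 receptor genes stacked for each of the 6 libraries; right, the percent of the summed FPKM that each gene holds. The summed level is between 21.8 and 22.1 in Tespa1+/+ and between 9.36 and 9.56 in Tespa1-/- libraries, and the Itpr3 share is lower in each Tespa1-/- library.

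Because a ratio within a library does not depend on the scaling between libraries, 5 log2 ratios of FPKM were compared. The log2 ratio of Itpr3 to Itpr2 was 2.56 ± 0.07 in Tespa1+/+ and 1.84 ± 0.03 in Tespa1-/- LSKs (SD, n = 3), a difference of -0.72. The ratio of Itpr3 to Itpr1 differed by -0.39, that of Itpr2 to Itpr1 by 0.33, that of Plcg1 to Plcg2 by -0.66 and that of Itprid2 to Tespa1 by 0.77. Such a ratio still holds the trend with gene length where its genes differ in length. With the trend taken out, the differences were -0.93 for Itpr3 to Itpr2, -0.68 for Itpr3 to Itpr1, 0.26 for Itpr2 to Itpr1, -0.38 for Plcg1 to Plcg2 and 0.71 for Itprid2 to Tespa1. Groups did not overlap for any of the 5 ratios, with or without this step. Each had an exact two-sided permutation p of 0.1 (0.1 after adjustment over the 5 ratios), which is the smallest the design allows, so none can pass a threshold of 0.05.

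Among the enzymes that make IP3, PLC-gamma-1 and PLC-gamma-2 are the forms activated by tyrosine kinases. Plcg1 (chromosome 2, 160731300 to 160775760) had 82.2, 83.2 and 74.2 CPM in Tespa1+/+ and 48.5, 44.5 and 33.1 CPM in Tespa1-/- libraries. The groups did not overlap, though Tespa1-/- replicate 3 was lower than the other two. Its mean fell from 79.9 ± 4.95 to 42.0 ± 7.96 CPM (SD, n = 3), with a log2 fold change of -0.92 (SE 0.13, 95% interval -1.23 to -0.61, edgeR adjusted p = 6.7e-04). The length-corrected value was -0.57 (edgeR adjusted p = 0.00783), just short of a fold of 1.5. Its exons share 379 bases with Zhx3 on the opposite strand, which had 79 to 248 counts per library against 411 to 2628 for Plcg1, and whether counting used the strand was not given in the sources used here.

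Plcg2 (chromosome 8, 117498291 to 117635142), the form that predominates in many blood cells, had the higher level of the pair, with a mean FPKM of 70.6 ± 0.95 in Tespa1+/+ against 7.04 ± 0.44 for Plcg1. It had 296.1, 295.0 and 289.0 CPM in Tespa1+/+ and 241.4, 244.4 and 238.8 CPM in Tespa1-/- libraries, and the groups did not overlap. Its change on the log2 scale, -0.28 (SE 0.03, edgeR adjusted p = 8.7e-05), was smaller than a fold of 1.5, so Plcg2 was not called. The length-corrected value was -0.21.

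ITPRID2, the relative of Tespa1, is encoded on chromosome 2 (79635352 to 79672966). Itprid2 had 43.7, 42.5 and 43.3 CPM in Tespa1+/+ and 29.8, 31.6 and 32.3 CPM in Tespa1-/- libraries, which did not overlap. The log2 fold change was -0.47 (SE 0.05, edgeR adjusted p = 2.1e-04), under a fold of 1.5, and -0.28 after the length correction. The related gene Itprid1 had no counts in any library.

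Grb2 (chromosome 11, 115644045 to 115708597), which encodes the adaptor that links tyrosine-phosphorylated receptors and scaffolds to SOS and RAS, was the gene whose groups overlapped. It had 97.3, 103.1 and 200.1 CPM in Tespa1+/+ and 194.5, 189.6 and 199.3 CPM in Tespa1-/- libraries. Tespa1+/+ replicate 3 stood with the Tespa1-/- libraries, and the other two Tespa1+/+ libraries were near each other and well below. The log2 fold change was 0.55 (SE 0.26, 95% interval -0.07 to 1.16, edgeR adjusted p = 0.104), and the gene was not called. Without Tespa1+/+ replicate 3 it was 0.97 (edgeR adjusted p = 3.5e-05) and Grb2 was called higher. A library apart from its group in this way was not particular to that library. A library stood apart when it was more than 0.7 in log2 CPM from the mean of both other libraries of its group. Those also had to lie within 0.2 of each other. By these criteria, 39 of 6882 genes with a mean count of at least 500, Grb2 included, stood apart in Tespa1+/+ replicate 3. In the other libraries, 31 to 60 genes did so.

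Hspa9 encodes the mitochondrial chaperone that also tethers IP3 receptors to mitochondria. It had 695.8, 697.0 and 683.5 CPM in Tespa1+/+ and 853.7, 831.0 and 848.1 CPM in Tespa1-/- libraries. All Tespa1-/- libraries were higher, in contrast to the other 7 genes whose groups did not overlap. The log2 fold change was 0.29 (SE 0.02, 95% interval 0.23 to 0.34, edgeR adjusted p = 3.4e-05), smaller than a fold of 1.5, and 0.35 after the length correction.

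**Figure D3:**
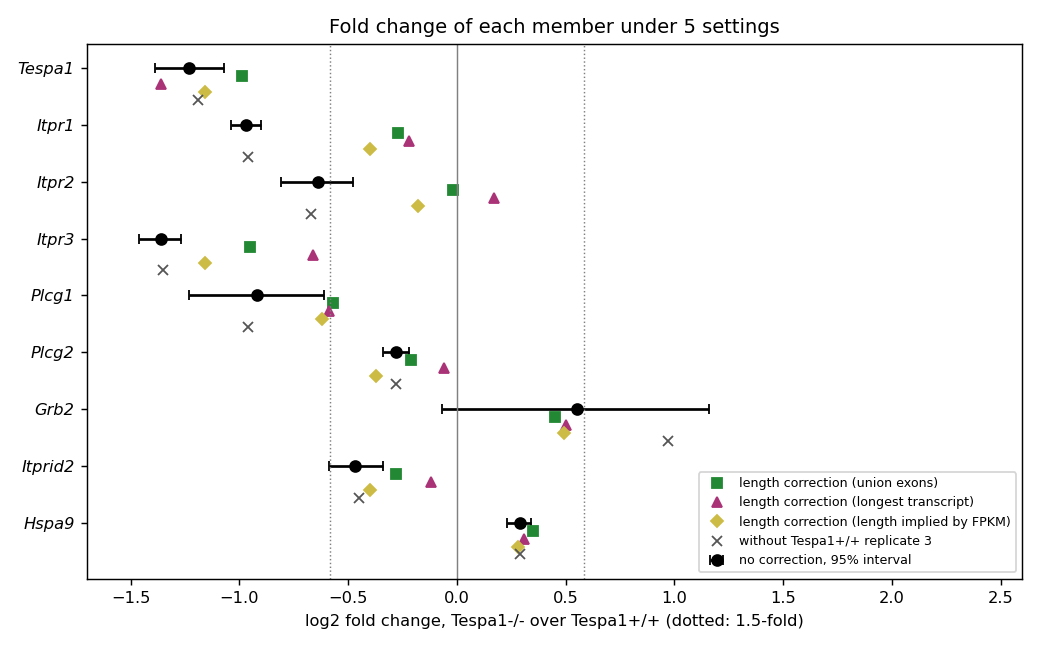
Log2 fold change (Tespa1-/- over Tespa1+/+) of the 9 genes without correction (black, with its 95% interval), under 3 corrections for gene length and without Tespa1+/+ replicate 3; dotted lines mark a fold of 1.5. Tespa1 and Itpr3 stay past the line under each setting drawn, Itpr1 and Itpr2 move towards 0 under the length corrections, and Grb2 moves to 0.97 without the 1 library.

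The genes whose log2 CPM ran most like that of Tespa1 over the 6 libraries, among 10820 genes with a mean count of at least 100, were Kif24 (Pearson r = 0.9997), Zfp704 (0.9995), Lpp (0.9994), Traf6 (0.9994) and Dock1 (0.9993). The 6 points fall into the 2 groups, so these correlations largely restate the difference between them, and 21% of genes compared had r over 0.95. The same r was 0.99 for Itpr3, 0.97 for Itpr2 and -0.99 for Hspa9.

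Promoters were read from RefSeq (GRCm38.p6) as the 250 bases before each start. Windows were given for 6 of the 9 genes, with 2 windows for Grb2. The E-box CACGTG, the motif that MYC and MAX and many other factors recognise, was searched because the study is about c-Myc, with 6 other motifs, all chosen with these sequences in view. It was present in Itpr3 (at -85 from the start), Itprid2 (at -83) and Plcg2 (at -20), and in 6.02% of 32851 promoters of the same length. The sequence is its own complement, so both strands read alike. The stretches around these 3 matches are shown to place the motif, with the E-box in capitals.
Itpr3: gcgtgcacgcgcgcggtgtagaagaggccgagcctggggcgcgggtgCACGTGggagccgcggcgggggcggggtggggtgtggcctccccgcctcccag
Itprid2: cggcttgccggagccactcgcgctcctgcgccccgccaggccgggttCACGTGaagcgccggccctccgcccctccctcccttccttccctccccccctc
Plcg2: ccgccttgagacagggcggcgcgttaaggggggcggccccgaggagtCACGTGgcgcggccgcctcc
They lie at chr17:27057172-27057271, chr2:79635295-79635394 and chr8:117498208-117498274, each on the plus strand. The 3 genes with the E-box had log2 fold changes of -1.36, -0.47 and -0.28. Those with a window but without it were Plcg1 at -0.92, Itpr2 at -0.64 and Grb2 at 0.55, which was not called. Both Grb2 windows, chr11:115699929-115700178 and chr11:115699535-115699784, lie inside the gene as annotated in GENCODE, which starts at 115708597 on the minus strand. The bases before that start were not searched for any motif. On either strand, the GC box GGGCGG (32.7% of promoters) was found in Itprid2, Plcg1, Itpr2, Plcg2 and Itpr3, the CCAAT box CCAAT (33.8%) in Plcg1, Itpr2 and Grb2, and the NFAT core GGAAA (55.6%) in Plcg2 and Grb2. The AP-1 motif TGANTCA (6.75%), the ETS motif CCGGAA (12%) and the EGR motif GCGTGGGCG (0.536%), which can overlap a GC box, were in none of these windows. A match is a string in a window and not a bound site, and no binding data are analysed here.

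Other genes of IP3 and calcium signalling were taken from 10 lists with 142 genes, of which 127 were tested. Over the lists, 9 genes were called higher and 32 lower, or 14 higher and 16 lower after the length correction, and the median log2 fold change was -0.09. The groups did not overlap for 93 of the 127 tested genes, beside 69.1% of all genes tested. For comparison, the same calls over all tested genes were the 14.0% and 19.2% above, and 8.20% and 15.2% after the length correction, where the median of the lists was 0.02.

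Genes that bind or modify the IP3 receptor were called lower in 4 of 17 tested and higher in 0. The list median was -0.22, and -0.07 after the length correction. Mrvi1, whose product anchors cGMP kinase to the receptor, fell by 2.52 on the log2 scale (edgeR adjusted p = 2.0e-04), from 5.97 ± 0.48 to 1.03 ± 0.54 CPM (SD, n = 3), and Bcl2, the apoptosis inhibitor that also binds the receptor, fell by 1.01 (adjusted p = 7.6e-06). The other called genes, named after their values were seen, were Homer3, a scaffold, from 38.0 ± 3.05 to 19.0 ± 0.84 CPM, and Ahcyl2, with a log2 fold change of -0.77. Ahcyl2 encodes a relative of IRBIT, a protein that binds the IP3 receptor. Length-corrected values were -2.24 for Mrvi1, -0.58 for Bcl2, -1.03 for Homer3 and -0.07 for Ahcyl2, so that the calls of Bcl2 and Ahcyl2 were lost. Homer2, a relative of Homer3 named after its value was seen, was then called higher, at 0.67. Without the correction Homer2 was at 0.11 (edgeR adjusted p = 0.661). Its groups overlapped, at 2.77 to 3.33 CPM in Tespa1+/+ and 3.15 to 3.38 CPM in Tespa1-/- libraries.

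Of 15 tested genes for IP3 production and breakdown, 5 were called lower and 1 higher. The median was -0.33, and -0.17 after the length correction. Itpkb, the kinase that turns IP3 into IP4, had a log2 fold change of -0.89 (edgeR adjusted p = 2.3e-06) and Plcb2, the G-protein-activated phospholipase, one of -0.84 (adjusted p = 1.9e-06). Plcd3, another phospholipase, rose from 3.83 ± 0.25 to 9.40 ± 0.91 CPM, which is 1.30 on the log2 scale. Without correction, 12 of the 15 had groups that did not overlap, beside 69.1% of all genes tested. After the length correction the list had 0 genes called lower and 1 higher. Itpkb was then at -0.40, Plcb2 at -0.57 and Plcd3, the gene still called, at 1.26.

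Among genes of the ER calcium stores, 2 of 12 tested were called higher and 1 lower. The median was 0.11, and 0.27 after the length correction. Calr, the calcium-buffering chaperone calreticulin, rose from 2503 ± 30.7 to 3889 ± 91.7 CPM (SD, n = 3; log2 fold change 0.64, edgeR adjusted p = 1.6e-06), and Pdia3, its partner disulfide isomerase, had a log2 fold change of 0.59 (adjusted p = 5.2e-05). After the length correction both were under a fold of 1.5, at 0.53 and 0.51, and were no longer called. The gene called lower was Ryr1, a ryanodine receptor named after its value was seen, at -1.02, and its corrected value of -0.27 (edgeR adjusted p = 0.382) was not called. The list then had 1 gene called higher, Sdf4, a calcium-binding protein named after its value was seen, at 0.60, and 0 lower. Without the correction Sdf4 was at 0.37 and was not called. Atp2a2, which encodes 1 of the SERCA pumps that fill the stores, had 380.9 ± 17.6 and 386.9 ± 5.58 CPM, a log2 fold change of 0.02 (adjusted p = 0.623) whose sign turned with scaling, at -0.08 with total counts alone. Under the length corrections it was higher without reaching a fold of 1.5, at 0.25 with exon length (edgeR adjusted p = 0.00116), 0.23 with implied length (0.0015) and 0.44 with the longest transcript (1.1e-04). Atp2a3, another SERCA gene named after its value was seen, had a mean FPKM of 47.5 in Tespa1+/+ and 32.9 in Tespa1-/- libraries. Its log2 fold change was -0.43 (edgeR adjusted p = 3.0e-04), and -0.27 after the length correction (edgeR adjusted p = 0.00317), under a fold of 1.5 in both.

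For store-operated entry, 2 of 10 tested genes were called lower and 0 higher. These were Cracr2a, a regulator of the ORAI channel, at -0.84, and Trpc6, a cation channel named after its value was seen, at -2.39. The ER calcium sensor gene Stim1 had 41.7, 50.2 and 46.2 CPM in Tespa1+/+ and 31.1, 26.9 and 61.7 CPM in Tespa1-/- libraries, so the groups overlapped (log2 fold change -0.22, edgeR adjusted p = 0.545). Without Tespa1-/- replicate 3, its value was -0.66 (edgeR adjusted p = 0.00234), and without Tespa1-/- replicate 2 it was 0.01. Orai1, the channel pore, had a log2 fold change of -0.20 (edgeR adjusted p = 0.547) with overlapping groups. After the length correction Trpc6 was still called lower, at -2.26, whereas Cracr2a at -0.49 was not. Stim1 was then at 0.26 (edgeR adjusted p = 0.471) and Orai1 at -0.37 (edgeR adjusted p = 0.28).

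At the contact of ER and mitochondria, 2 of 18 tested genes were called higher and 2 lower. The median was 0.28, and 0.33 after the length correction. Smdt1, encoding the EMRE subunit of the mitochondrial calcium uniporter, rose from 37.4 ± 3.43 to 66.2 ± 3.20 CPM (log2 fold change 0.83, edgeR adjusted p = 7.0e-05), and Mcub, encoding an inhibitory uniporter subunit, rose by 1.25 from 2.53 ± 0.41 CPM. The pore gene Mcu had a log2 fold change of 0.20 (adjusted p = 0.0141) and the outer membrane channel gene Vdac1 one of 0.37 (adjusted p = 4.4e-05), both under a fold of 1.5. The genes called lower were Pacs2, a contact-site sorting protein, at -0.93, and Micu3, a uniporter regulator named after its value was seen, at -1.37. The length correction changed which of these genes were called. Smdt1 at 0.55 fell under a fold of 1.5 and was no longer called, whereas Mcub at 0.94, Pacs2 at -0.64 and Micu3 at -1.13 still were, and Mcu and Vdac1 were at 0.49 and 0.24. The list then had 5 genes called higher and 2 lower, the other 4 higher genes, named after their values were seen, being Letm1 at 0.73, Vdac2 at 0.63, Vdac3 at 0.62 and Vapb at 0.59. Without the correction these 4 were at 0.28, 0.52, 0.45 and 0.28, and none was called. Of the 10 genes for HSPA9 partners, all tested, 3 were called higher, with a median of 0.44: Hspe1, the co-chaperonin, at 0.75, Grpel1, the nucleotide exchange factor of HSPA9, at 0.74, and Iscu, an iron-sulfur scaffold named after its value was seen, at 0.73. Pam16, an import-motor subunit, was called lower, at -0.78. After the length correction, Grpel1 at 0.72 and Pam16 at -0.93 were still called, and Hspe1 at 0.47 and Iscu at 0.54 were not. The median of the HSPA9 partners was then 0.42.

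Calcium extrusion was represented by 5 tested genes, of which 2 were called lower and 0 higher. Atp2b4, a plasma membrane calcium pump, fell from 261.9 ± 14.2 to 82.3 ± 1.82 CPM (SD, n = 3; log2 fold change -1.67, edgeR adjusted p = 9.5e-07), and Slc8a1, a sodium-calcium exchanger, had a log2 fold change of -1.50 (adjusted p = 4.1e-05). Both were called lower after the length correction as well, at -1.12 and -0.79.

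Downstream of calcium, 6 of 18 tested calmodulin, calcineurin and NFAT genes were called lower and 0 higher. The median was -0.23, and 0.02 after the length correction. Camk1d, a calmodulin-dependent kinase, fell from 21.7 ± 1.19 to 5.08 ± 0.56 CPM (log2 fold change -2.09, edgeR adjusted p = 4.5e-06). Nfat5 had 95.1 to 99.5 CPM in Tespa1+/+ and 15.3, 16.7 and 41.1 CPM in Tespa1-/- libraries, with Tespa1-/- replicate 3 above the other two (log2 fold change -2.01, adjusted p = 0.00179). NFAT5 is regulated by osmotic stress and, unlike the other NFAT factors, not by calcineurin. Nfatc1, which is regulated by calcineurin, fell by 0.76 on the log2 scale (adjusted p = 8.1e-06). Length-corrected values were -1.76 for Camk1d, -1.30 for Nfat5 and -0.43 for Nfatc1, and the list then had 2 genes called higher and 3 lower. Among them, named after their values were seen, were Ppp3ca, a calcineurin subunit, at 0.78 and Nfatc2 at -0.96. Without the correction Ppp3ca was at 0.31, which was not called, and Nfatc2 at -1.45.

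The other product of phospholipase C is diacylglycerol. Of 12 tested genes of this arm, 5 were called lower and 0 higher, with a median of -0.54, or -0.27 after the length correction. Prkca and Prkcq, both protein kinase C genes, had log2 changes of -1.50 (edgeR adjusted p = 5.3e-05) and -1.33 (adjusted p = 1.0e-04), and -1.08 and -1.03 after the length correction. The list then had 3 genes called lower and 2 higher, the others, named after their values were seen, being Prkce at -0.67 and, higher, Prkcb at 0.81 and Rasgrp2 at 1.03. Neither Prkcb, at 0.47, nor Rasgrp2 was called without the correction. Rasgrp2 had only 22 to 64 counts per library, and its groups overlapped, at 1.48 to 2.81 CPM in Tespa1+/+ and 1.94 to 3.76 CPM in Tespa1-/- libraries. Of the 10 partners of the GRB2 adaptor, 4 were called lower and 1 higher. Their median was -0.50, and -0.07 after the length correction. Gab1, a docking protein, had a log2 fold change of -1.30 (adjusted p = 8.6e-05) and Grap2, an adaptor of the GRB2 family, one of -1.17 (adjusted p = 0.017). The others, named after their values were seen, were Cbl at -1.05, Sos1 at -0.81 and, higher, Gab3 at 0.69. Gab1 at -1.16, Grap2 at -0.93 and Gab3 at 0.71 were still called after the length correction, and Cbl at -0.49 and Sos1 at -0.32 were not. The T cell markers Cd3d, Cd3e and Cd3g had 0 to 8 counts in any library. All 10 T cell markers together summed to 30.2 to 30.6 CPM in Tespa1+/+ and 17.2 to 18.1 CPM in Tespa1-/- libraries, and 3 of the 5 tested were called lower.

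**Figure D4:**
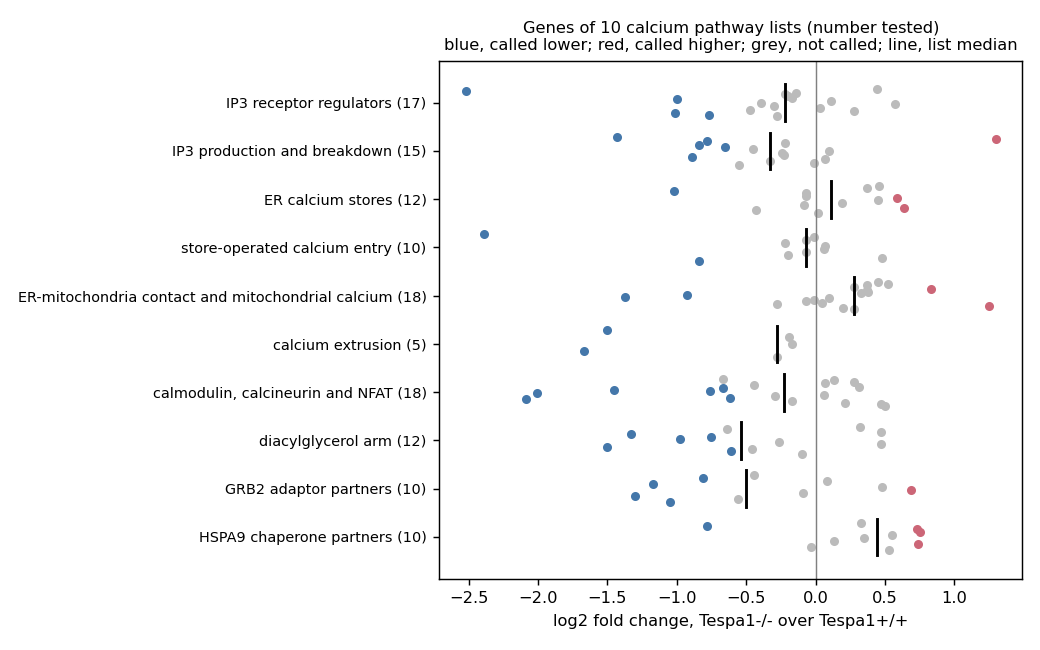
Log2 fold change (Tespa1-/- over Tespa1+/+) of each tested gene of the 10 calcium pathway lists, 1 row per list, with called genes in blue (lower) or red (higher), others in grey and the list median as a black line. The values drawn are without the length correction. The medians run from -0.54 for the diacylglycerol arm to 0.44 for the HSPA9 partners, and from -0.27 to 0.42 for the same lists after it.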

How the data were processed

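The authors deposited whole-number read counts per gene and FPKM values for 6 libraries. Per the labels, stranded poly-A paired-end libraries were sequenced on an Illumina NovaSeq instrument, and CASAVA 1.8, HISAT2, StringTie and edgeR are named with build GRCm38; the counting tool and strand setting are not given in the sources used here. Deposited FPKM (counts scaled by gene length and library total) were used for levels between genes. All per-sample columns were used. Coordinates and lengths came from GENCODE M21, which held 55141 of the 55487 genes, 54784 with the same coordinates.

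Counts were filtered with filterByExpr, scaled by TMM and tested with edgeR 4.0.16 (quasi-likelihood, 3 Tespa1+/+ against 3 Tespa1-/-, Benjamini-Hochberg over 15332 genes) in R 4.3.3. CPM use TMM-scaled totals of the tested genes. Calls needed a fold over 1.5 with an adjusted p under 0.05; the study's own cutoff, that fold with an unadjusted p under 0.05, was run too. The length correction fitted each library's log2 CPM deviation on log2 exon length by loess (span 0.5) and used the fit as an offset; FPKM were also divided by it, a step added after seeing the data. Ratios were tested with exact permutation tests (scipy 1.17.1). Alternatives were DESeq2 1.42.0, limma-trend (limma 3.58.1) on log2(FPKM + 1) and log2(FPKM + 0.1) (FPKM of 1 or more in 3 or more libraries), RLE factors, total counts, other filters, glmTreat, other lengths, a replicate block and leaving out each library. The steps were tested on simulated data.

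Depth was 12856630 to 30576981 counts; counting error covers only part of the spread. The genes, the 10 pathway lists and the 8 marker lists were chosen with earlier results of these data known. From each pathway list, the called genes with the 2 largest rises and 2 largest falls at a mean count of at least 50 were named, with Stim1, Orai1, Atp2a2, Mcu, Vdac1 and Nfatc1 regardless of change, and the 5 genes most like Tespa1; any other gene is said to be named after its values were seen.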

Additional observations from a re-analysis of the deposited data

How the results depend on the processing

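Tespa1, Itpr1, Itpr3 and Plcg1 kept their direction and an adjusted p under 0.05 in all 18 alternatives, as did 19 of 28 named pathway genes; Itpr1 ranged from -1.07 to -0.22 in log2 fold change and Itpr3 from -1.46 to -0.66. Scaling by total counts alone moved the median of all genes from -0.00 to -0.10. The length corrections changed the most. With exon length, 2 of the 9 genes were lower and 14 pathway genes were higher and 16 lower (17 at the study's cutoff); with the length implied by FPKM, 3 and 19 were lower; with the longest transcript, chosen after seeing the data, 3 and 13 were lower (15 at the study's cutoff). Itpr2 was then at -0.02 (exon length), -0.18 (implied) and 0.17 (longest transcript, sign turned), and with the longest transcript Plcg2 was at -0.06 and Itprid2 at -0.12. Against a fold of 1.5 (glmTreat), Itpr2 at -0.64, Itprid2 at -0.47, Plcg2 at -0.28 and Hspa9 at 0.29 no longer passed, and 20 pathway genes were lower. On log2(FPKM + 1), 5 pathway genes were higher and 18 lower. Receptor shares moved with length: in Tespa1+/+ Itpr1 was 45.8% with exon length and 60.0% with the longest transcript, Itpr2 7.50% with the latter, and Itpr3 45.8% and 32.5%; in Tespa1-/- they were 50.2% and 63.7%, 10.0%, and 38.3% and 26.3%. With the length trend taken out of FPKM, chosen after seeing the data, Itpr1 held 41.5% and 50.2% and Itpr3 50.5% and 38.3%, and the 5 ratios kept their direction. Leaving out 1 library gave Grb2 values from 0.37 to 0.97, the highest without Tespa1+/+ replicate 3, and 0 to 1 of the 9 genes higher at either cutoff. Stim1 turned to 0.26, 0.25 and 0.01 with the length corrections and ranged from -0.66 to 0.01 with 1 library left out, Orai1 from -0.48 to 0.01. Atp2a2 passed an adjusted p of 0.05 with the length corrections, at 0.25, 0.23 and 0.44 (edgeR), and turned to -0.08 with total counts and on both FPKM scales and to -0.00 with at least 10 counts in every library. The cause of these changes was not tested beyond the settings' own construction.

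Libraries with the same replicate number did not deviate together (r of 0.0459, 0.0107 and 0.0595). These r show no pairing by number but cannot exclude one, because counting noise in each gene also lowers r. With the replicate block, pathway genes were 8 higher and 32 lower, Grb2 was at 0.63 (edgeR adjusted p = 0.0507) and was the 1 of the 9 genes called higher at the study's cutoff, and the log2 ratios kept their direction with a sign-flip p of 0.25, the smallest it allows.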
